A study of Mus musculus with 4 samples.

Results

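The matrix metalloproteinases (MMPs), the Adamts proteases and the Timps, their tissue inhibitors, were examined in Osr1+ cells of the embryonic mouse limb. Members were all gene symbols of the count tables made of Mmp and a number, with or without an a or b, of Adamts and a number, or of Timp and a number from 1 to 4. This rule uses names only. It found 46 of 23284 genes, 23 of them Mmp genes, 19 Adamts genes and 4 Timp genes. RNA was sequenced from GFP+ cells sorted from collagenase-digested limbs of C57BL/6J embryos at E13.5, with propidium iodide used to leave out dead cells. One group was heterozygous (Osr1 GCE/+) and the other homozygous (Osr1 GCE/GCE) for GCE, an eGFP-IRES-CreERt2 cassette placed in the Osr1 locus, and each group had 2 replicates. Both groups therefore carried the cassette, GCE/GCE cells had an additional copy of it and no functional Osr1 allele, and no wild-type cells were sequenced. The gate followed the Osr1 locus itself, so that it gave any cell with an active Osr1 locus, whatever its type.

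MMPs are zinc-dependent proteases that cut collagens, proteoglycans and other components of the extracellular matrix. Most are secreted as inactive precursors, and the membrane-type members stay at the cell surface. Adamts proteases are secreted relatives with thrombospondin repeats, and their known tasks include trimming the amino-terminal propeptide of procollagens and cutting the large proteoglycans aggrecan and versican. Timps bind the active site of MMPs, and Timp3 also inhibits several Adam and Adamts proteases. In the limb, these enzymes act in the connective tissue around muscle and tendon, in the breakdown of cartilage before bone forms, and in the clearing of versican-rich matrix between the digits.

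As a check of the genotypes, Osr1 had 81.9 and 79.1 CPM (counts scaled to normalized library size) in the GCE/+ samples but only 11.9 and 13.9 CPM in the GCE/GCE samples. Its edgeR log2 fold change, with SE 0.11, was -2.64 at an adjusted p of 7.17e-05. Total counts were 52121596 to 61402140 per sample, so that 3 counts, the limit that a count of 0 allows, corresponded to 0.0490 to 0.0574 CPM. Such limits cover counting error only. The markers of limb mesenchyme and connective tissue were abundant in every sample, with 15750 and 14320 summed CPM over 8 genes in GCE/+ and 13360 and 11690 in GCE/GCE. Most of each sum was Col3a1, with 9550 and 8788 CPM in GCE/+ and 7718 and 6846 in GCE/GCE. Pdgfra and Prrx1 had log2 fold changes of 0.05 and -0.01. Of these 8 genes 7 had negative fold changes, edgeR called 0 of them, with 4 at an unadjusted p under 0.05, and DESeq2 called 4 lower (Dcn, Col3a1, Lum and Tcf7l2). Of all tested genes, 19.1 percent were lower and 19.2 percent higher in both GCE/GCE samples. At an adjusted p under 0.1 edgeR called 0.895 percent lower and 0.888 percent higher, and DESeq2 1.69 and 1.77 percent. All 14 macrophage markers were lower in both GCE/GCE samples (385 and 388 summed CPM in GCE/+ against 241 and 168 in GCE/GCE), with 10 past an adjusted p of 0.1 in edgeR. All 10 cartilage markers were higher in both GCE/GCE samples, with 4 past that threshold. Their summed level also differed within GCE/+, with 590 CPM in replicate 1 and 957 in replicate 2, against 1349 and 1470 in GCE/GCE. Most of each of these sums was Col2a1. Of 8 endothelial, 9 myogenic, 5 epidermal and 4 erythroid markers tested, edgeR called 0, while DESeq2 called 1 endothelial marker lower (Tie1, adjusted p = 0.0813) and 1 myogenic marker higher (Ttn, adjusted p = 0.0382). Of the 8 endothelial fold changes 7 were negative, 4 of them with an unadjusted p under 0.05 in edgeR. Xist, the RNA of the inactive X chromosome, was at 1142 CPM in GCE/GCE replicate 1 and at 0.572 to 2.63 CPM in the other samples. In sorted pools such as these, fewer cells of a type and less RNA per cell cannot be told apart.

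Members together took 0.312 to 0.339 percent of all counts. Of the 46 members, 11 had a mean over 100 CPM, and 35 passed the filter on low counts and were tested. Levels of different genes were compared as CPM per kilobase of the longest annotated transcript. On this scale Mmp2, the gelatinase that cuts denatured collagen and basement membrane, stood first with a mean of 130 and a range of 119 to 137 over the 4 samples. Timp2, which inhibits MMP2 and also takes part in its activation, followed with 115 (105 to 123), and Mmp14, the membrane-type MMP that activates the MMP2 precursor, with 101 (95.2 to 108). The ranges of Mmp2 and Timp2 overlapped, as did those of Timp2 and Mmp14. Adamts1 came next with 74.7 (66.9 to 80.2), a range that did not reach that of Mmp14. Timp3 had 69.7 (57.6 to 81.2), and Mmp11, a stromelysin known from stromal cells, had 53.9 (50.9 to 55.5). Adamts10, Adamts9, Adamts15, Adamts7, Adamts17 and Mmp16 completed the first 12, from 34.4 down to 12.5. Among the 11 neighbouring pairs of these 12 genes, 6 had overlapping ranges. Ranking by CPM without length gave 11 of the same 12 genes.

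**Figure D1:**
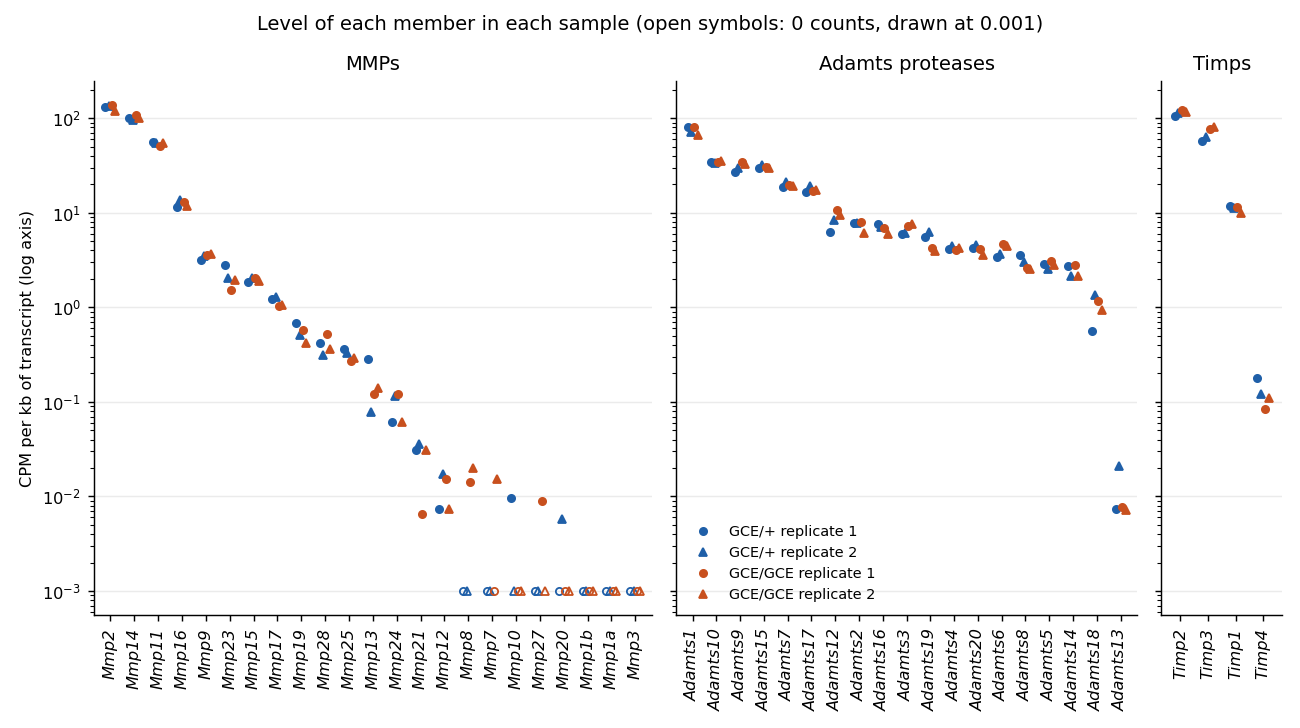
CPM per kilobase of the longest transcript (log axis) for each of the 46 members, with 1 symbol per sample (blue GCE/+, orange GCE/GCE, circles replicate 1, triangles replicate 2) and open symbols at 0.001 for 0 counts. Mmp2, Mmp14, Timp2, Adamts1 and Timp3 lie near the top in all 4 samples, and 8 Mmp genes have samples with no count.

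Few genes carried most of the Mmp and Timp families. Mmp2, Mmp14 and Mmp11 together gave 88.9 to 90.0 percent of the CPM of all Mmp genes, and Timp2 and Timp3 gave 98.3 to 98.9 percent of that of all Timps. The tested members spanned a 1460-fold range of mean CPM per kilobase, from Mmp2 to Mmp24. At the other end, 8 members had at most 3 counts in every sample, namely Mmp1a, Mmp1b, Mmp3, Mmp7, Mmp8, Mmp10, Mmp20 and Mmp27, and 3 of them, Mmp1a, Mmp1b and Mmp3, had no count in any. Mmp12, Mmp21 and Adamts13, the protease of von Willebrand factor, were also left untested. Mmp12, known as macrophage elastase, had 0.0327 to 0.0765 CPM. The listed macrophage markers ran from Aif1, the lowest at 2.04 to 5.01 CPM, to Mrc1, the highest at 50.2 to 103 CPM.

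All 8 of these nearly silent genes lie in the Mmp cluster of chromosome 9, which in GRCm38 extends from 7272514 to 7699585. Within these 427 kb, 10 Mmp genes stand side by side with no other protein-coding gene between them, the remaining members being Mmp12 and Mmp13. Summed over the cluster, the level was 0.805 and 0.306 CPM in GCE/+ and 0.448 and 0.474 CPM in GCE/GCE. Mmp13, the collagenase of hypertrophic cartilage and bone, was the only one tested. It had 46 and 11 counts in GCE/+ and 19 and 23 counts in GCE/GCE, so that the GCE/+ replicates lay on either side of both GCE/GCE samples. Its log2 fold change was -0.48 (SE 0.54, 95% interval -1.72 to 0.75), which leaves a change in either direction within the interval. Without GCE/+ replicate 1, the sample with the most Mmp13 counts, it was 0.73.

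The genes of the cluster also shared promoter features that the rule did not use. RefSeq promoter windows of GRCm38.p6 were at hand for 32 of the 46 members, and the 250 bases before the annotated start were searched on both strands for the TATA box (TATAAA), the AP-1 site (TGANTCA), the GC box (GGGCGG) and the Runx site (ACCACA). No window was at hand for Adamts4, Adamts5, Adamts6, Adamts7, Adamts8, Adamts10, Adamts15, Adamts16, Adamts19, Mmp2, Mmp9, Mmp16, Mmp17 and Mmp19. The windows of Mmp13 and Mmp3 are shown for the cluster, and those of Mmp14 and Adamts1 for abundant members elsewhere, with every match in capitals. They run 5′ to 3′ on the strand of the gene.
Mmp13, chr9:7272264-7272513, + strand: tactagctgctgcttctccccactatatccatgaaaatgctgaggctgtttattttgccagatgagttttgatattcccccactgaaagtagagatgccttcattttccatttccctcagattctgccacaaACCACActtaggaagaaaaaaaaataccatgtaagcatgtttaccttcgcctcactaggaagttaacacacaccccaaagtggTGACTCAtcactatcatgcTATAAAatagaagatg
Mmp3, chr9:7445572-7445821, + strand: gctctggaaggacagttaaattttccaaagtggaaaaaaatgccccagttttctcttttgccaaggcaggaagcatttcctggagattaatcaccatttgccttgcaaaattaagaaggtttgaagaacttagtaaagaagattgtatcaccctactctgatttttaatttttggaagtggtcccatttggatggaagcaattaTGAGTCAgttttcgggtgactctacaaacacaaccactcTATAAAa
Mmp14, chr14:54431348-54431597, + strand: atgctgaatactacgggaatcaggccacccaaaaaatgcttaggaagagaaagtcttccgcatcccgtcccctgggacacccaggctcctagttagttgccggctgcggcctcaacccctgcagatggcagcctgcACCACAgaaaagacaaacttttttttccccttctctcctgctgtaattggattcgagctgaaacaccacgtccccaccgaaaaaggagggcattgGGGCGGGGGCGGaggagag
Adamts1, chr16:85803114-85803363, - strand: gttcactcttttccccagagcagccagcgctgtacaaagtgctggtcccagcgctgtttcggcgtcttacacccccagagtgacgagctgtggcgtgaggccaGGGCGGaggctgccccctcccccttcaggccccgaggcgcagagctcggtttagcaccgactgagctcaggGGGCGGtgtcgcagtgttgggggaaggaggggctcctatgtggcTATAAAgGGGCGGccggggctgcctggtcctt

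Mmp13 holds an AP-1 match whose first base lies 35 bases before the start and a TATA box at 16, with a Runx match further upstream at 118. Mmp3 has the same arrangement of an AP-1 match, at 46, before a TATA box, at 7, and no Runx match. Mmp14 has no AP-1 match and no TATA box, but a Runx match at 114 and a pair of adjoining GC boxes, at 19 and 13. Adamts1 has a TATA box at 32 and 3 GC boxes. Over the whole cluster, a TATA box stood in 7 of 10 windows, an AP-1 match in 7, a Runx match in 3 and a GC box in 0, with a median of 0.5 CpG dinucleotides (0 to 4). The 22 windows of members outside the cluster held a TATA box in 2, an AP-1 match in 0, a Runx match in 2 and a GC box in 16, with a median of 15.0 CpG (1 to 35). Among the windows of all 27025 genes, 13.0 percent had a TATA box, 6.87 percent an AP-1 match, 14.2 percent a Runx match and 32.9 percent a GC box, and the median was 6.0 CpG. The same contrast ran through all genes of the tables, with a median of 15.0 CpG for genes that passed the filter and 2.0 for genes that did not. These matches are letters in a window and no evidence of binding. RefSeq starts were used, and GENCODE begins several of these genes further upstream, by the widest margin Adamts20 and Mmp11.

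**Figure D2:**
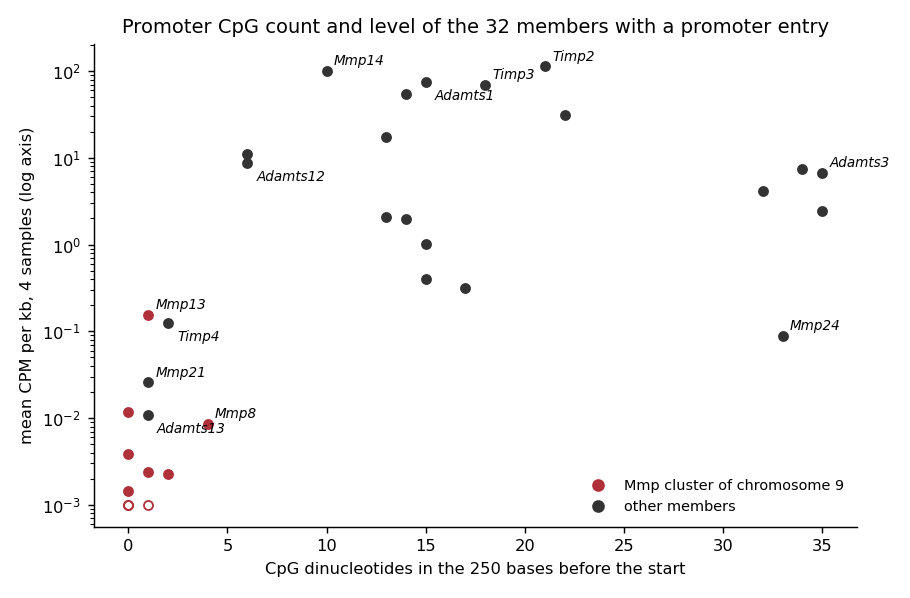
Mean CPM per kilobase over the 4 samples (log axis) against the number of CpG dinucleotides in the 250 bases before the RefSeq start, for the 32 members with a window (red, Mmp cluster of chromosome 9; open, no count). The cluster lies at 0 to 4 CpG and low levels, together with Timp4, Mmp21 and Adamts13, while Mmp24 has 33 CpG and a low level.

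Between genotypes, few members passed the test. Of the 35 tested, 1 was lower in GCE/GCE cells at an adjusted p under 0.1 (Adamts19) and 0 were higher, by edgeR's quasi-likelihood test adjusted over all genes. The same test called 1.78 percent of all 15645 genes, 0.895 percent as lower and 0.888 percent as higher. At an unadjusted p under 0.05 there were 7 members, 20.0 percent of those tested, against 10.5 percent of all genes. They were Adamts19 and Adamts8, which had lower values in GCE/GCE cells, and Timp3, Adamts6, Adamts12, Adamts3 and Adamts9, which had higher ones. DESeq2, the tool named in the study's methods, called 3 members higher (Timp3, Adamts6 and Adamts12) and 1 lower (Adamts19). Its calls over all genes came to 3.45 percent, 1.77 percent higher and 1.69 percent lower. Members whose groups did not overlap numbered 7 higher and 8 lower, or 20.0 and 22.9 percent, close to the 19.2 and 19.1 percent of all genes. The median log2 fold change of the members was -0.03 (range -0.63 to 0.46), beside 0.00 over all genes. For 20 of the 35, the 95% interval of the log2 fold change lay within 0.5 of 0. The median size of the log2 fold change was 0.14 for the members and 0.11 for all tested genes with counts in every sample. Between replicates of the same genotype, the median size of the log2 difference was as large for the members, 0.14 in GCE/+ and 0.13 in GCE/GCE. For all tested genes it was 0.15 and 0.11. With 2 samples against 2, an exact permutation test of a single value cannot give a p under 0.333.

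**Figure D3:**
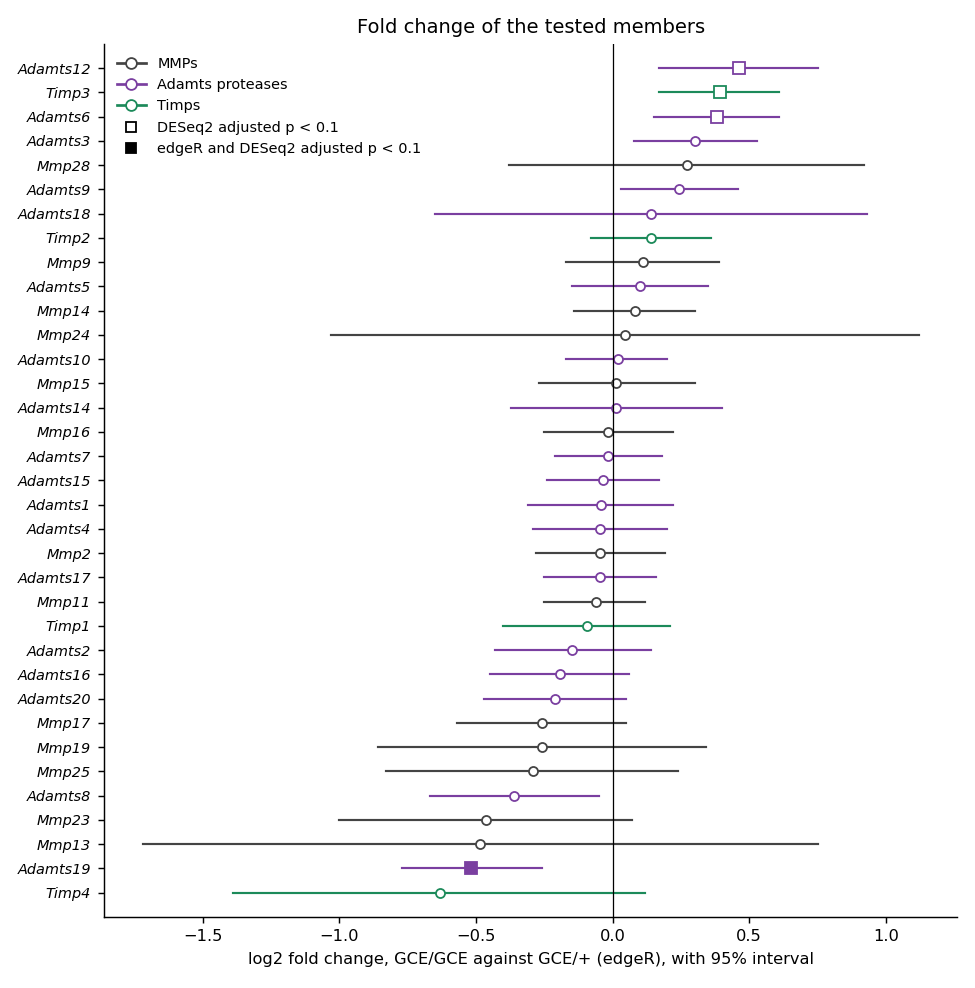
Log2 fold change of each of the 35 tested members, GCE/GCE against GCE/+ (edgeR), with its 95% interval as a line and colours for the 3 families. Squares have a DESeq2 adjusted p under 0.1, and the filled square, Adamts19, also passed in edgeR. Intervals are wide for low members such as Mmp13, Mmp24 and Timp4.

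Among the MMPs, 13 of 23 genes were tested, none had an unadjusted p under 0.05, and DESeq2 called 0. The gelatinase Mmp2 had 402 and 413 CPM in GCE/+ and 422 and 368 CPM in GCE/GCE. The groups overlapped, and the log2 fold change was -0.05 (SE 0.10, 95% interval -0.28 to 0.19). Mmp9, the gelatinase of osteoclasts and leukocytes, had 10.1 and 11.2 CPM in GCE/+ and 11.3 and 11.7 CPM in GCE/GCE (0.11, SE 0.12, adjusted p = 0.888). The groups lay next to each other without overlap, as for the 19.2 percent of all tested genes that were higher in both GCE/GCE samples. The macrophage markers were lower in GCE/GCE cells, and the part of macrophages in the Mmp9 level was not tested. The osteoclast markers gave 67.3 and 52.4 summed CPM in GCE/+ and 67.3 and 40.8 in GCE/GCE, with 0 of the 4 tested past the threshold. Most of each sum was Ctsk, with 57.05 and 41.96 CPM in GCE/+ and 58.28 and 34.65 in GCE/GCE. All 4 tested had negative fold changes. Acp5 was lower in both GCE/GCE samples (8.54 and 8.95 against 7.68 and 5.11 CPM, unadjusted p = 0.0482 in edgeR). Mmp11 had 127 and 125 CPM in GCE/+ and 116 and 125 in GCE/GCE. The interval of its fold change, -0.25 to 0.12, was among the narrowest.

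The membrane-type MMPs were all tested. Mmp14 had 330 and 308 CPM in GCE/+ and 349 and 326 CPM in GCE/GCE, overlapping groups with a log2 fold change of 0.08 (SE 0.09, 95% interval -0.14 to 0.30). Mmp16, which can also activate MMP2, had 57.3 to 68.3 CPM with overlapping groups, and Mmp15 had 9.59 to 10.4 CPM. Mmp17, which is held by a lipid anchor, and Mmp25 had lower values in both GCE/GCE samples (log2 fold changes of -0.26 and -0.29, adjusted p = 0.612 and 0.813). Mmp24 stayed at or under 0.517 CPM. Of the other MMPs, Mmp23 was the most abundant per kilobase, with 4.02 and 2.91 CPM in GCE/+ and 2.21 and 2.83 in GCE/GCE. The highest value came from GCE/+ replicate 1, and the log2 fold change was -0.46 (SE 0.23, adjusted p = 0.586). Without that sample it was -0.21, and without GCE/GCE replicate 1, which had the lowest value, -0.30.

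Of the Adamts proteases, 18 of 19 were tested. The procollagen N-proteinases, which remove the amino-terminal propeptide from fibrillar procollagens, were led by Adamts2 with 56.5 and 56.6 CPM in GCE/+ and 58.0 and 44.1 in GCE/GCE. GCE/GCE replicate 2 stood below the other 3 samples, and the groups overlapped. The log2 fold change was -0.15 (SE 0.13) with all samples and 0.04 without that one. Adamts3, which also acts on the precursor of VEGF-C, had 23.3 and 24.1 CPM in GCE/+ and 28.7 and 29.8 CPM in GCE/GCE. The replicates were close and the groups apart, but the adjusted p of 0.274 did not pass the threshold (log2 fold change 0.30, SE 0.10). Adamts14 had 11.1 to 14.4 CPM and a log2 fold change of 0.01 (95% interval -0.37 to 0.40).

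The hyalectanases cut aggrecan, versican and related proteoglycans. Adamts1, the most abundant of them, had 391 and 349 CPM in GCE/+ and 392 and 327 in GCE/GCE. Replicate 1 was above replicate 2 in both genotypes, by more than the genotypes differed (log2 fold change -0.04, SE 0.12). Adamts9, whose product cuts versican, had 218 and 239 CPM in GCE/+ and 278 and 262 CPM in GCE/GCE. Both GCE/GCE values were above both GCE/+ values, and the log2 fold change of 0.24 (SE 0.09, 95% interval 0.03 to 0.46) had an adjusted p of 0.388. With offsets for transcript length it was 0.14 (adjusted p = 0.583). Exons of Adamts9 overlap those of A730049H05Rik on the opposite strand, and the kit did not mark strand. Adamts15 was at 175 to 192 CPM with overlapping groups. Adamts8 had 13.0 and 10.9 CPM in GCE/+ and 9.39 and 9.25 CPM in GCE/GCE. The GCE/GCE samples were alike, and the log2 fold change was -0.36 (SE 0.14, adjusted p = 0.364). Without GCE/+ replicate 1 it was -0.23, and without GCE/+ replicate 2 it was -0.49. Adamts4 and Adamts5, known as aggrecanases, were at 18.0 to 19.5 and 27.7 to 33.0 CPM, and both overlapped. Adamts20 had lower values in both GCE/GCE samples (-0.21, adjusted p = 0.627).

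Adamts7 and Adamts12 bind and cut cartilage oligomeric matrix protein. Adamts7 had 100 and 113 CPM in GCE/+ and 107 and 104 in GCE/GCE, with a log2 fold change of -0.02 (SE 0.09, 95% interval -0.21 to 0.18). Adamts12 had 54.4 and 71.2 CPM in GCE/+ and 92.3 and 80.6 CPM in GCE/GCE. All GCE/GCE values were higher, and GCE/+ replicate 1 was the lowest. The log2 fold change of 0.46 (SE 0.13, 95% interval 0.17 to 0.75) was the highest of the members. Its adjusted p was 0.183 in edgeR and 0.044 in DESeq2. With offsets for transcript length the log2 fold change was 0.35 (edgeR adjusted p = 0.126). Leaving out single samples gave log2 fold changes from 0.27, without GCE/+ replicate 1, to 0.67, without GCE/+ replicate 2. Between the GCE/+ replicates Adamts12 differed by 0.39 on the log2 scale, in the same direction as the cartilage markers, whose median difference there was 0.84. The part of cartilage cells in this result was not tested.

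Adamts6 and Adamts10 associate with fibrillin microfibrils, the scaffold of elastic fibres. Adamts6 had 25.9 and 27.9 CPM in GCE/+ and 36.0 and 34.1 CPM in GCE/GCE. The difference between groups was larger than that between replicates, with a log2 fold change of 0.38 (SE 0.10, 95% interval 0.15 to 0.61). Its adjusted p was 0.154 in edgeR and 0.0762 in DESeq2. With offsets for transcript length the log2 fold change was 0.28 (edgeR adjusted p = 0.231). Adamts10 had 144 and 138 CPM in GCE/+ and 141 and 145 in GCE/GCE, a log2 fold change of 0.02 (95% interval -0.17 to 0.20). Adamts6 and Adamts10, which share this role, thus had intervals that overlapped in part, and their difference was not tested.

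The remaining Adamts proteases, whose substrates are less well known, included the only called member. Adamts19 had 28.3 and 32.0 CPM in GCE/+ and 22.0 and 20.1 CPM in GCE/GCE. Both GCE/GCE values were below both GCE/+ values. The log2 fold change was -0.52 (SE 0.11, 95% interval -0.77 to -0.26), with an adjusted p of 0.093 in edgeR and 0.00913 in DESeq2. The edgeR call was lost without GCE/+ replicate 2 (-0.43, adjusted p = 0.127), without GCE/GCE replicate 2 (-0.46, adjusted p = 0.214) and with the replicate number as a block (adjusted p = 0.143). The gene lies at chromosome 18, 58836667 to 59054060 on the + strand in GRCm38, and no other gene overlaps its exons. Adamts17, the most abundant of this class, had 106 and 122 CPM in GCE/+ and 110 and 111 in GCE/GCE, with overlapping groups. Adamts16 had lower values in both GCE/GCE samples (-0.19, adjusted p = 0.673). Adamts18 had 3.17 CPM in GCE/+ replicate 1 and 5.31 to 7.67 CPM in the other 3 samples.

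**Figure D4:**
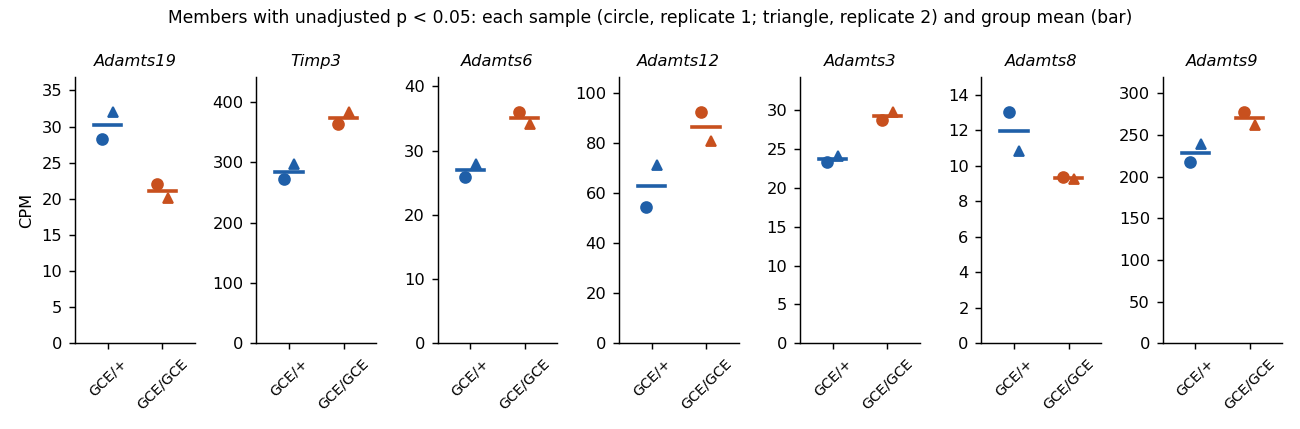
CPM of the 7 members with an unadjusted p under 0.05, ordered by p, each on its own axis from 0. Symbols are single samples, circles replicate 1 and triangles replicate 2, and bars are means of 2. In each panel both GCE/GCE values lie on the same side of both GCE/+ values, and for Adamts12 the GCE/+ replicates are far apart.

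Of the Timps, Timp3 had the lowest p. This inhibitor is bound to the matrix and has the broadest range of targets in the family. Timp3 had 272 and 297 CPM in GCE/+ and 364 and 383 CPM in GCE/GCE. Every GCE/GCE value was above every GCE/+ value, and the gap between groups was wider than that between replicates. The log2 fold change was 0.39 (SE 0.10, 95% interval 0.17 to 0.61), with an adjusted p of 0.126 in edgeR and 0.00706 in DESeq2. Leaving out single samples gave log2 fold changes of 0.32 to 0.46 and edgeR adjusted p-values of 0.0603 to 0.425. In GRCm38 Timp3 spans chromosome 10, 86300372 to 86349506, inside Syn3, a synapsin gene on the opposite strand with which it shares exon sequence in GENCODE. Since the kit did not mark strand, reads of Timp3 and Syn3 cannot be told apart there. Timp2 had 389 and 420 CPM in GCE/+ and 457 and 435 CPM in GCE/GCE. The groups did not overlap, but the log2 fold change of 0.14 (95% interval -0.08 to 0.36) had an adjusted p of 0.756. Timp1, an X-linked gene, had 10.5 and 9.83 CPM in GCE/+ and 10.3 and 8.81 CPM in GCE/GCE. The library with high Xist was not outside the range of the GCE/+ samples. Timp4 had 0.985 and 0.669 CPM in GCE/+ and 0.465 and 0.604 in GCE/GCE (-0.63, SE 0.33, adjusted p = 0.609).

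The balance of inhibitors and proteases was described by sums. All Mmp genes together gave 955 and 952 CPM in GCE/+ and 989 and 914 in GCE/GCE, and all Adamts genes 1471 and 1510 CPM against 1590 and 1465. Both sums overlapped between groups. The Timps summed to 673 and 728 CPM in GCE/+ and to 832 and 827 CPM in GCE/GCE, with no overlap (exact permutation test, two-sided, p = 0.333, the smallest this design can give). The ratio of Timp to Mmp CPM was 0.705 and 0.765 in GCE/+ and 0.841 and 0.905 in GCE/GCE. The ratio of Timp3 to Timp2 CPM was 0.698 and 0.707 in GCE/+ against 0.796 and 0.883 in GCE/GCE. These are ratios of RNA and say nothing of enzyme activity.

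**Figure D5:**
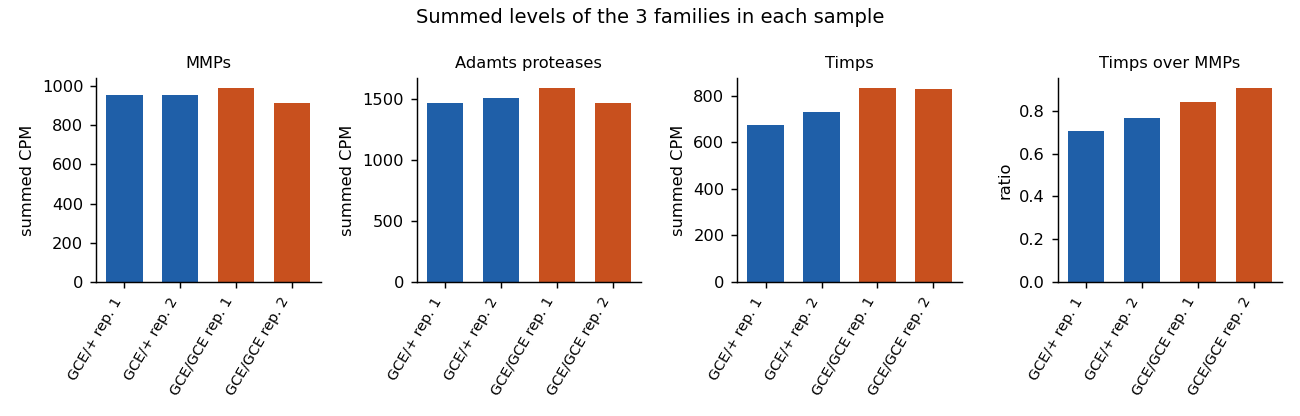
Summed CPM of the Mmp, Adamts and Timp genes and the ratio of Timp to Mmp CPM in each of the 4 samples, as bars from 0. The Timp sum and the ratio are higher in both GCE/GCE samples, whereas the Mmp and Adamts sums overlap.

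Genes that act with the members were followed in lists. Of 14 tested activators and regulators of MMPs, 3 fell and 0 rose in edgeR, and DESeq2 called 4 lower and 0 higher. Over all genes, 0.895 percent were called lower by edgeR and 1.69 percent by DESeq2. Plau, the urokinase that turns plasminogen into plasmin, had 37.5 and 52.8 CPM in GCE/+ and 27.7 and 23.4 CPM in GCE/GCE (log2 fold change -0.82, SE 0.16, adjusted p = 0.0737). Plat, the tissue-type activator of plasminogen, had 110 and 124 CPM against 89.5 and 83.9 CPM (-0.43, SE 0.09, adjusted p = 0.0805). Both plasminogen activators were thus lower in both GCE/GCE samples, while Plg itself had at most 3 counts. A2m, which traps proteases of all classes, had 39.9 and 36.9 CPM in GCE/+ and 26.5 and 18.7 CPM in GCE/GCE (-0.77, SE 0.16, adjusted p = 0.08). Plaur, the urokinase receptor, was at 4.89 and 5.93 against 3.48 and 2.70 CPM (adjusted p = 0.133 in edgeR, past the threshold at 0.0533 in DESeq2). All 4 had lower values in both GCE/GCE samples, as the macrophage markers did, and the part of macrophages in them was not tested. Reck, a membrane-bound inhibitor of MMP14 and MMP2, had 145 to 161 CPM with overlapping groups, and Furin, which cuts the precursors of membrane-type MMPs and Adamts proteases, had 95.0 to 101 CPM.

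The Adamts-like proteins resemble Adamts proteases but lack the protease domain, and several bind fibrillin microfibrils. Of 6 tested, 2 rose and 0 fell, in edgeR as in DESeq2. Over all genes, 0.888 percent were called higher by edgeR and 1.77 percent by DESeq2. Adamtsl3 had 19.6 and 18.5 CPM in GCE/+ and 28.5 and 30.2 CPM in GCE/GCE (log2 fold change 0.62, SE 0.10, adjusted p = 0.0414). Adamtsl1 had 92.2 and 96.3 CPM against 157 and 124 CPM (0.58, SE 0.11, adjusted p = 0.0704). In both, the GCE/GCE samples stood clearly above the GCE/+ samples. Adamtsl2, at 14.4 and 13.0 against 17.9 and 19.1 CPM, missed the threshold (0.43, adjusted p = 0.155). Of 18 tested Adam proteases, the membrane-bound relatives, 0 passed in either direction, and their median log2 fold change was -0.04.

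Among 5 genes for procollagen C-proteinases and their enhancers and 18 matrix substrates, 0 passed in either direction in edgeR. The substrates Comp, Acan and Col2a1, which also mark cartilage, had log2 fold changes of 1.07, 0.99 and 0.84 (adjusted p = 0.126, 0.184 and 0.106). Vcan, the versican core protein, had 947 and 992 CPM in GCE/+ and 1016 and 1076 CPM in GCE/GCE (0.11, adjusted p = 0.835). Dcn, a small proteoglycan that coats collagen fibrils, had 517 and 375 CPM against 316 and 242 CPM (-0.68, adjusted p = 0.142 in edgeR and 0.00106 in DESeq2). By DESeq2, 1 of the substrates was higher and 3 were lower. Of the 7 tested markers of hypertrophic cartilage and bone, the usual site of Mmp13, edgeR called 1 higher (Runx2) and 0 lower, and DESeq2 also called 1 lower (Spp1). Col10a1, the collagen of hypertrophic cartilage, had 0.115 to 0.402 CPM. Runx2, a transcription factor of bone and maturing cartilage, rose from 31.6 and 37.4 to 68.2 and 74.7 CPM (1.05, SE 0.11, adjusted p = 0.0122 in edgeR). Spp1, the gene for osteopontin, had 14.8 and 12.1 CPM in GCE/+ and 9.41 and 8.53 CPM in GCE/GCE (-0.58, SE 0.14, adjusted p = 0.12 in edgeR and 0.0391 in DESeq2). Ibsp, the gene for bone sialoprotein, had overlapping groups (-0.58, SE 0.37, adjusted p = 0.721 in edgeR).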

How the data were processed

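The deposited values are raw counts per gene, as whole numbers, which the authors obtained with TopHat2 (paired-end alignment, 50 bp, mouse build mm9) and with HTSeq in intersection-strict mode, given the UCSC genes (versions and strand setting not given in the sources used here). Genotype and replicate came from the labels, and 1 embryo gave each library. Genes were filtered with filterByExpr (15645 kept), normalized by TMM and tested with edgeR 4.0.16 in R 4.3.3 (quasi-likelihood, two-sided, Benjamini-Hochberg over all genes, threshold 0.1). CPM used TMM library sizes. Transcript lengths and coordinates were taken by symbol from GENCODE vM21 on GRCm38, without conversion from mm9, and 98.0% of symbols matched. The 95% intervals used 8.34 degrees of freedom. DESeq2 1.42.0, other normalizations and filters, length offsets, a replicate block and leaving out each sample were alternatives. Members and lists were chosen with earlier results of these data known. Members were to be named with all their values where they passed in edgeR or DESeq2 or had an unadjusted p under 0.05. The same held for those that ranked among the 12 highest by CPM or led their class. Adamts15 met this rule but was given as a range, and Mmp9, Timp1 and Timp4 were given with all values without meeting it. The procedure was tested on 5 sets of simulated counts with 200 changed genes each and a common dispersion. At a log2 change of 0.5, edgeR recovered 31.6 percent and DESeq2 31.2 percent of the changed genes. At a log2 change of 1 they recovered 90.8 and 84 percent.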

Additional observations from a re-analysis of the deposited data

How the results depend on the processing

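Over all genes, 279 passed the threshold in the fit reported above, 508 by DESeq2, 425 with no filter on low counts, 470 with both the replicate block and offsets for transcript length, 122 at an adjusted p under 0.05 and 197 to 984 when 1 sample was left out. Members called higher numbered 3 by DESeq2, 1 with no filter (Timp3), 1 with length offsets (Timp3), 1 with length offsets and the block (Timp3) and 0 to 4 when 1 sample was left out, the 4 being Adamts12, Adamts18, Adamts6 and Timp3 without GCE/+ replicate 2. In the fits with all 4 samples, members called lower numbered 0 with the replicate block and 0 at an adjusted p under 0.05. When 1 sample was left out, the member called lower was not always Adamts19. The log2 fold change of Adamts8 was -0.49 without GCE/+ replicate 2 and -0.23 without GCE/+ replicate 1. Of the alternatives with all 4 samples, Adamts19 missed the threshold of 0.1 with the replicate block and no length offsets. When 1 sample was left out, its log2 fold change was -0.61 to -0.43. The remaining alternatives with all 4 samples gave 0 members higher and 1 lower, as reported. Taken over 9755 genes, same-numbered samples did not deviate together (correlation -0.0415). An effect of the replicate number shared by a part of the genes was not tested. With the replicate number as a block 280 genes passed. Fold changes rose with transcript length over all tested genes (Spearman's rho 0.251). With 2 samples a group, the intervals were widest for members of few counts, such as Mmp13, Mmp24 and Timp4.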
